A study of Mus musculus with 12 samples.

Results

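Syndecans and glypicans are the main families of heparan sulfate proteoglycans on the cell surface, and 10 mouse genes encode them: 4 syndecans (Sdc1, Sdc2, Sdc3 and Sdc4) and 6 glypicans (Gpc1, Gpc2, Gpc3, Gpc4, Gpc5 and Gpc6). They were chosen by name, as every non-control probe whose gene name on the array is one of these genes, which gave 13 of the 39429 probes. The list was drawn up because Sdc3 had already been seen to be lower in one deficient group than in the other. That contrast is therefore described for the members with no p-value, a count of calls in it supports nothing, and the question is whether the other members share it.

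Syndecans span the plasma membrane and have a short cytoplasmic tail that binds PDZ-domain proteins. Glypicans are held to the outer leaflet by a glycosylphosphatidylinositol anchor and are cut loose by Notum. The heparan sulfate chains of both families bind growth factors and morphogens such as FGF, Wnt, hedgehog, BMP and midkine proteins, which pattern the pituitary during development and act in the adult gland.

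Pituitary RNA came from 12 female C57BL/6J mice aged 2 months, 4 per diet group. Control mice ate a normal diet, early life mice had a diet deficient in vitamin D during early life alone, and peripubertal mice had the deficient diet during the peripubertal window alone. All samples are whole-gland RNA of a single sex and strain, and the labels name no engineered allele in any group. Each of 6 Agilent 2-colour arrays carried 2 animals of the same group, the odd-numbered animal in Cy3 and the even-numbered animal in Cy5. Both control arrays were on one slide and all 4 deficient arrays on another. In comparisons with control, effects of slide and of diet cannot be told apart. The early life and peripubertal arrays shared a slide and a scan.

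The group names used here are those under which the scanner files were deposited. In the deposited value table, each of the 8 columns labelled as a deficient group matches a channel whose scanner file carries the opposite deficient label. The match is to the median spot signal less background, within 1e-06 log2 after a constant shift per column. None of the 4 control columns matches any channel. If the value table's labels are the right ones, early life and peripubertal change places in everything below and the sign of each difference between them turns. All 12 listed markers of pituitary hormone cells, among them Gh, Prl, Pomc, Tshb, Lhb and Fshb, passed the filter on dim probes. Between 61% and 66.3% of probes were well above background in control samples, 50.6% to 59.7% in early life samples and 57.9% to 67.2% in peripubertal samples. The share of spots that the scanner software marked as outliers was at most 1.9% on a control array, 6.54% or more on both early life arrays, and at most 5.08% on a peripubertal array.

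The results turn on a few probes, and their sequences differ in base composition. For each, 30 of the 60 bases are shown, and capitals mark the longest unbroken stretch of purines alone or pyrimidines alone. The Sdc3 probe is 75.0% purine and its longest such stretch has 18 bases, which 0.86% of all probes reach. The dimmer Gpc4 probe has a stretch of 25 bases, reached by 0.327% of probes, and the Gpc6 probe one of 16 bases, reached by 1.39%. The Sdc4 probe and the brighter Gpc4 probe are shown for contrast, with stretches of 5 and 6 bases against a median of 7 over all probes.
Sdc3, bases 18 to 47: ttaaatAAGAGAAGGAGGAGAGGGtcagat
Sdc4, bases 1 to 30: ttgttccaaaTTTCCagaatagaatatagg
Gpc4, brighter probe, bases 3 to 32: ctagtgactttgCTTTTTaaatgaatggac
Gpc4, dimmer probe, bases 31 to 60: ttgggTTTTCTTCCTTTCTTTCTTTCTCTC
Gpc6, bases 31 to 60: aacaagtcaagacAAAAAGAGAGAGAGGAt

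In build mm9, as the scanner files give it, the Sdc3 probe lies at chr4:130382015-130382074 on the plus strand and begins at base 4753 of the transcript it was designed on. The Sdc4 probe lies at chr2:164251211-164251270 on the minus strand. The Gpc4 probes lie 460 bases apart on the minus strand of the X chromosome, the brighter at chrX:49406560-49406619 and the dimmer at chrX:49406100-49406159. The Gpc6 probe lies at chr14:118375311-118375370 on the plus strand. Whether these positions are exonic, coding or untranslated was not analysed here.

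In all, 10 of the 13 probes, for 9 of the 10 genes, passed the filter, because at least 4 of the 12 channels saw them well above background. The exception was Gpc2, a glypican best known from developing neurons, whose single probe was well above background in 0 of 12 channels and read between 6.61 and 6.87 log2 in every animal. The second probe of Gpc3 was well above background in 1 channel and the second probe of Gpc5 in 0. Signals are given as normalized log2 intensity, a level, and differences as log2 of the first group minus the second. Levels of different genes are not compared, because each probe has its own brightness.

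Sdc3, also called N-syndecan, is the syndecan best known from neurons and a receptor for the cytokines midkine and pleiotrophin. Its level was 10.66, 10.54, 9.98 and 10.51 in control animals 1 to 4, 9.56, 9.58, 9.56 and 9.95 in early life animals, and 10.73, 10.80, 10.92 and 10.91 in peripubertal animals. Every early life animal lay below every control, and every control below every peripubertal animal. The lowest control, animal 3, was 0.03 log2 above the highest early life animal, animal 4.

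The group means of Sdc3 were 10.43 ± 0.30 in control, 9.66 ± 0.19 in early life and 10.84 ± 0.09 in peripubertal mice (SD, n = 4 each). Early life was thus 1.18 log2 below peripubertal (SE 0.18), a 2.26-fold difference, which is the value that led to the choice of the family. Within Cy3 the early life mean was 1.26 log2 below the peripubertal mean, written as a difference of -1.26, and within Cy5 it was -1.09. Both dyes gave the same direction.

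A gap in the same direction was present in the brightness of the spots before any scaling. Raw intensity also carries the brightness of the whole channel, so the size of the raw gap is not read. For example, raw Cy5 intensity of Gpc5 was 766 and 765 in early life animals against 1105 and 841 in peripubertal animals. The normalized Cy5 levels of Gpc5 were nonetheless higher in early life animals. In Cy3 the raw Sdc3 intensity was 488 and 608 in early life animals against 1550.1 and 1634 in peripubertal animals, with 1049 and 557 in controls. In Cy5 it was 762 and 1029 in early life animals against 2839.5 and 2866 in peripubertal animals, with 1896 and 2022 in controls. In the authors' deposited value table, the channels filed as early life read 1.92, 1.04, 1.95 and 1.25 log2 and those filed as peripubertal 3.22, 2.23, 3.22 and 2.45. Early life and peripubertal animals did not overlap within either dye in any of these readings, whereas 1 Cy3 control lay between the early life animals in raw intensity. Spots within 2 rows and columns of the Sdc3 spot that were never well above background differed by -0.04 log2 on average between early life and peripubertal (2 spots).

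Against control, Sdc3 was 0.76 log2 lower in early life mice, a difference of -0.76 (SE 0.18), at -0.76 in Cy3 and -0.76 in Cy5. It was 0.41 log2 higher in peripubertal mice (SE 0.18), at 0.50 in Cy3 and 0.33 in Cy5. Neither passed the threshold of 0.05 after Benjamini-Hochberg adjustment over all genes in limma, with an adjusted p of 0.133 for early life and 1.00 for peripubertal. Both comparisons use the same deficient animals as the contrast that singled Sdc3 out, so they are not independent of it. The early life adjusted p was 0.0323 without control animal 3 and 0.0259 without the array of early life animals 3 and 4, and between 0.0688 and 0.510 with any other animal or array left out. Early life minus control was -0.38 when outlier spots were left out before scaling, a setting that moved the median of all genes to 0.31.

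**Figure D1:**
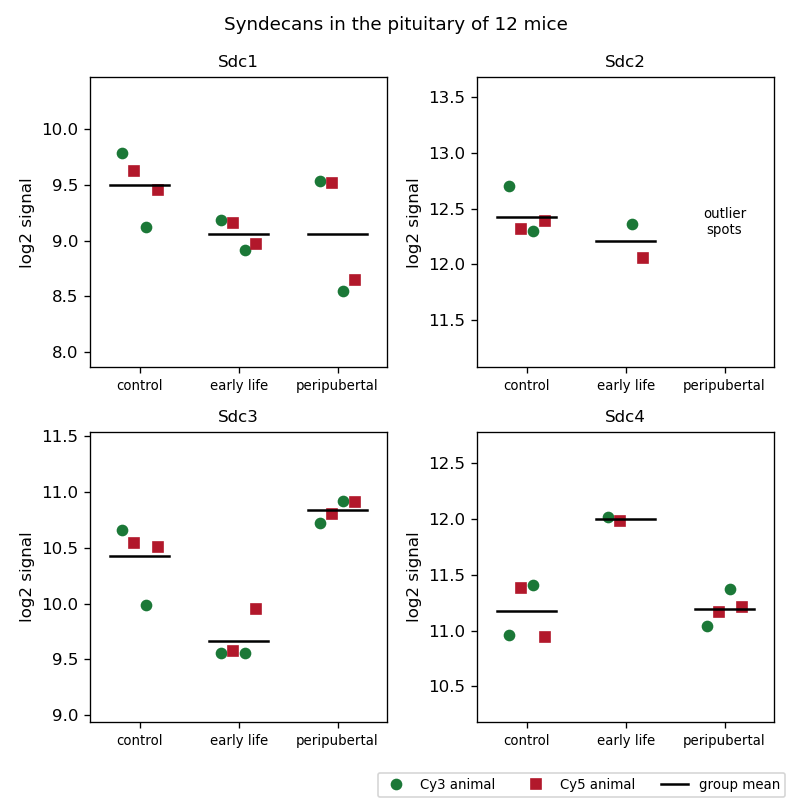
Normalized log2 signal (vertical axes, each spanning 2.6 log2) of the 4 syndecans by diet group, with a circle for each Cy3 animal, a square for each Cy5 animal and a line at the group mean. Sdc3 is lowest in the 4 early life animals, Sdc4 is highest in the 2 early life animals with a value, and Sdc2 has no value in peripubertal animals because those spots were marked as outliers.

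Sdc4, a widely expressed syndecan found at focal adhesions, went the other way. Its level was 12.02 and 11.98 in early life animals 1 and 2, 10.96, 11.38, 11.41 and 10.94 in controls, and 11.04, 11.17, 11.37 and 11.21 in peripubertal animals. The spots of early life animals 3 and 4, which shared an array, were marked as outliers and left out. The 2 remaining early life values lay above all 8 others. Early life was 0.82 log2 above control (SE 0.23, 2 against 4 animals), and the limma adjusted p of 0.181 did not pass. It was 0.80 log2 above peripubertal (SE 0.23), while peripubertal minus control was 0.02 (SE 0.19, adjusted p = 1.00 in limma). With the marked spots kept, early life animals 3 and 4 read 11.39 and 11.54. Early life then overlapped with control and stayed above peripubertal, whose highest value was 11.37, and the differences were 0.56 against control (adjusted p = 0.282 in limma) and 0.53 against peripubertal. Both early life values used for Sdc4 come from 1 array. Dropping the array of early life animals 3 and 4 leaves these values as they are and changes the fit of all genes. The limma adjusted p of Sdc4 for early life against control was then 0.0307, where 11.4% of all genes passed.

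Sdc1, the syndecan typical of epithelia, did not share the order of Sdc3. It read 9.79, 9.62, 9.13 and 9.45 in controls, 9.18, 9.16, 8.91 and 8.97 in early life animals, and 9.54, 9.52, 8.54 and 8.64 in peripubertal animals. The peripubertal values fell into an upper and a lower pair, and each pair was an array. Early life minus peripubertal was -0.01 (SE 0.25), at 0.01 in Cy3 and -0.02 in Cy5. The differences from control were -0.44 in early life (SE 0.25, adjusted p = 0.396 in limma) and -0.43 in peripubertal mice (SE 0.25, adjusted p = 1.00), and the latter became 0.03 without the array of peripubertal animals 3 and 4.

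Sdc2, the syndecan most often linked to mesenchymal cells, could be compared only in part. Controls read 12.70, 12.31, 12.30 and 12.38, early life animals 3 and 4 read 12.36 and 12.06, and the spots of the other 6 animals were marked as outliers. One early life value lay among the controls and one below them, and early life minus control was -0.21 (SE 0.20, 2 against 4 animals, adjusted p = 0.636 in limma). With the marked spots kept, all 12 animals had a value, between 12.06 and 12.70. Early life minus peripubertal was then -0.15 (SE 0.14) and peripubertal minus control 0.01 (SE 0.14), so the size of the Sdc3 difference was not seen in Sdc2. The sign of early life minus control for Sdc2 turned to 0.04 when channels were centred on their medians.

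Among the glypicans, Gpc3 and Gpc5 had higher means in early life mice, Gpc1 had a lower one, and the probes of Gpc4 disagreed. Gpc3, an X-linked glypican that binds hedgehog and Wnt ligands, read 9.85, 10.32, 9.93 and 9.89 in controls. It read 11.09, 11.10, 9.96 and 11.03 in early life animals and 9.13, 10.0005, 10.77 and 10.11 in peripubertal animals. Of the 4 early life animals, 3 lay above all others and animal 3 lay among the controls. Early life minus control was 0.80 (SE 0.39, adjusted p = 0.334 in limma) and early life minus peripubertal 0.79 (SE 0.39), at 0.58 in Cy3 and 1.01 in Cy5. Peripubertal minus control was 0.0045 (SE 0.39, adjusted p = 1.00), with a sign that depends on the setting. The second Gpc3 probe, 115152 bases away, read between 6.29 and 7.62 in all animals and gives no usable fold.

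Gpc5, a glypican of the subfamily that also holds Gpc3, read 8.79, 9.22, 8.93 and 9.20 in controls. It read 9.86, 9.57, 9.64 and 9.54 in early life animals and 9.52, 9.52, 8.84 and 9.29 in peripubertal animals. Early life animals lay above every other animal, by 0.32 log2 over the highest control but by 0.02 log2 over the highest peripubertal animal. The difference from control was 0.62 (SE 0.20), higher in 4 of 4 early life animals than in any control, and the limma adjusted p of 0.204 did not pass. Early life minus peripubertal was 0.36 (SE 0.20), at 0.57 in Cy3 and 0.15 in Cy5. Peripubertal minus control was 0.26 (SE 0.20, adjusted p = 1.00 in limma). The second Gpc5 probe, 1154642 bases upstream in the gene, was not well above background in any channel.

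Gpc4, another X-linked glypican, had 2 probes above the filter, and they did not place the groups in the same order. The brighter stood for the gene and the dimmer was fitted among all probes. The brighter one read 11.36, 11.18, 11.90 and 10.56 in controls, 11.85, 11.36, 11.56 and 11.57 in early life animals, and 10.25, 11.56, 11.31 and 10.84 in peripubertal animals. All 3 groups overlapped. Early life minus control was 0.34 (SE 0.42, adjusted p = 0.718 in limma), peripubertal minus control -0.26 (SE 0.42, adjusted p = 1.00) and early life minus peripubertal 0.59 (SE 0.42). By dye, early life minus peripubertal was 0.93 in Cy3 and 0.26 in Cy5.

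The dimmer Gpc4 probe, the one with the long pyrimidine stretch shown above, read 7.89, 7.93, 8.08 and 8.10 in controls. It read 7.51, 7.58, 7.28 and 7.68 in early life animals and 6.96, 7.20, 7.20 and 7.23 in peripubertal animals, and was well above background in 4 control, 2 early life and 2 peripubertal channels. The 3 groups did not overlap with each other. Peripubertal minus control was -0.85 (SE 0.13) and early life minus control -0.49 (SE 0.13), with adjusted p-values of 0.0876 and 0.153 in the limma fit over all probes, neither of which passed. Early life minus peripubertal was 0.36 (SE 0.13), at 0.315 in Cy3 and 0.41 in Cy5. The brighter probe gave early life minus control the opposite sign, and a mean of both probes gave -0.08.

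Gpc1, the glypican known from the nervous system, read 11.05, 10.79, 10.90 and 10.94 in controls. It read 10.17, 10.92, 10.08 and 10.84 in early life animals and 10.08, 10.62, 10.93 and 11.42 in peripubertal animals. Both low early life values were Cy3 animals. Early life minus control was -0.41 (SE 0.28, adjusted p = 0.470 in limma), at -0.85 in Cy3 but 0.02 in Cy5. Early life minus peripubertal was -0.26 (SE 0.28), at -0.38 in Cy3 and -0.14 in Cy5, and peripubertal minus control was -0.16 (SE 0.28, adjusted p = 1.00).

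Gpc6, the glypican whose gene neighbours Gpc5, was well above background in 9 of 12 channels, and its group means differed little. Values ran from 7.41 to 7.66 in controls, from 7.12 to 7.79 in early life animals and from 7.31 to 7.57 in peripubertal animals. Early life minus control was -0.08 (SE 0.17, adjusted p = 0.835 in limma), peripubertal minus control -0.06 (SE 0.17, adjusted p = 1.00) and early life minus peripubertal -0.02 (SE 0.17). The dyes went opposite ways. Early life minus peripubertal was -0.26 in Cy3 and 0.22 in Cy5, and early life minus control -0.28 in Cy3 and 0.11 in Cy5. Neither Cy3 early life channel was well above background.

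**Figure D2:**
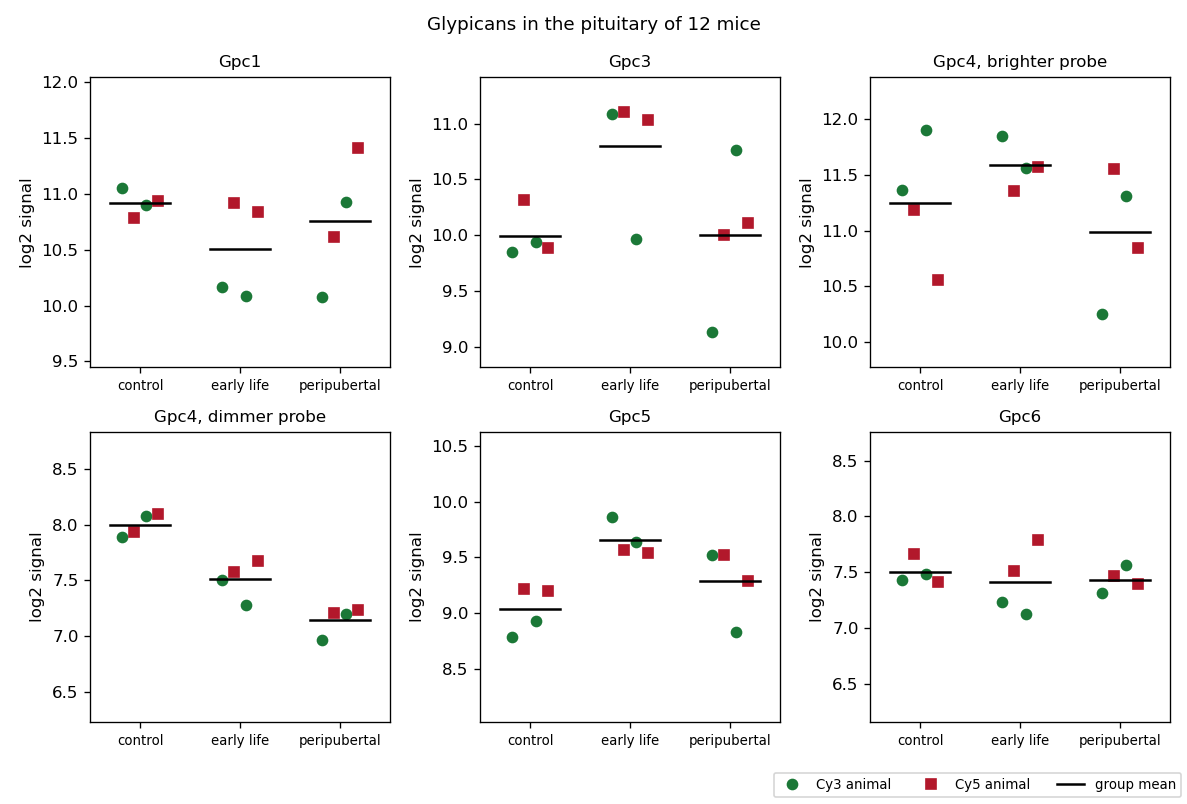
Normalized log2 signal (vertical axes, each spanning 2.6 log2) of the glypican probes that passed the filter, by diet group, with a circle for each Cy3 animal, a square for each Cy5 animal and a line at the group mean. Gpc5 is highest in the early life animals, early life animal 3 stands apart in Gpc3 at 9.96, and the brighter and dimmer probes of Gpc4 order the groups differently.

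The members taken one by one therefore gave no common direction between the deficient groups. Early life was lower than peripubertal in 4 of the 8 genes with a value in both groups (Sdc1, Sdc3, Gpc1 and Gpc6) and higher in the other 4 (Sdc4, Gpc3, Gpc4 and Gpc5). Apart from Sdc3, the lower ones differed by -0.26 at most. The median difference was 0.18, against 0.03 over all 18242 genes tested. The fit put 0.132% of all genes past the threshold in this contrast and 1 of the 8 members, Sdc3, whose value there led to the list. Groups did not overlap in 3 of the 8, where 22.4% of all genes did not overlap: Sdc3 was lower (9.95% of all genes) and Sdc4 and Gpc5 were higher (12.4%). The contrast chose the members, so nothing is read from these counts.

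Against control, 0 of 9 members passed the threshold in early life mice, where 0.0979% of all genes did, while 1 of 9 (Sdc3) did without control animal 3, where 1.24% of all genes did, and 2 of 8 (Sdc3 and Sdc4) did without the array of early life animals 3 and 4, where 11.4% of all genes did. Groups did not overlap for 3 of 9, against 15.1% of all genes: Sdc3 was lower, as 7.15% of all genes were, and Sdc4 and Gpc5 were higher, as 7.96% were. At an unadjusted p under 0.05, the same 3 genes passed in limma, against 16.2% of all genes. In peripubertal mice 0 of 8 members passed, where 0.0213% of all genes did. At an unadjusted p under 0.05, 1 of 8 did (Sdc3), against 4.69% of all genes, and Sdc3 was also the single member whose groups did not overlap, against 9.24% of all genes, 3.71% higher and 5.54% lower. The median member difference was -0.08 in early life and -0.03 in peripubertal mice, against 0.03 and 0.01 over all genes.

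**Figure D3:**
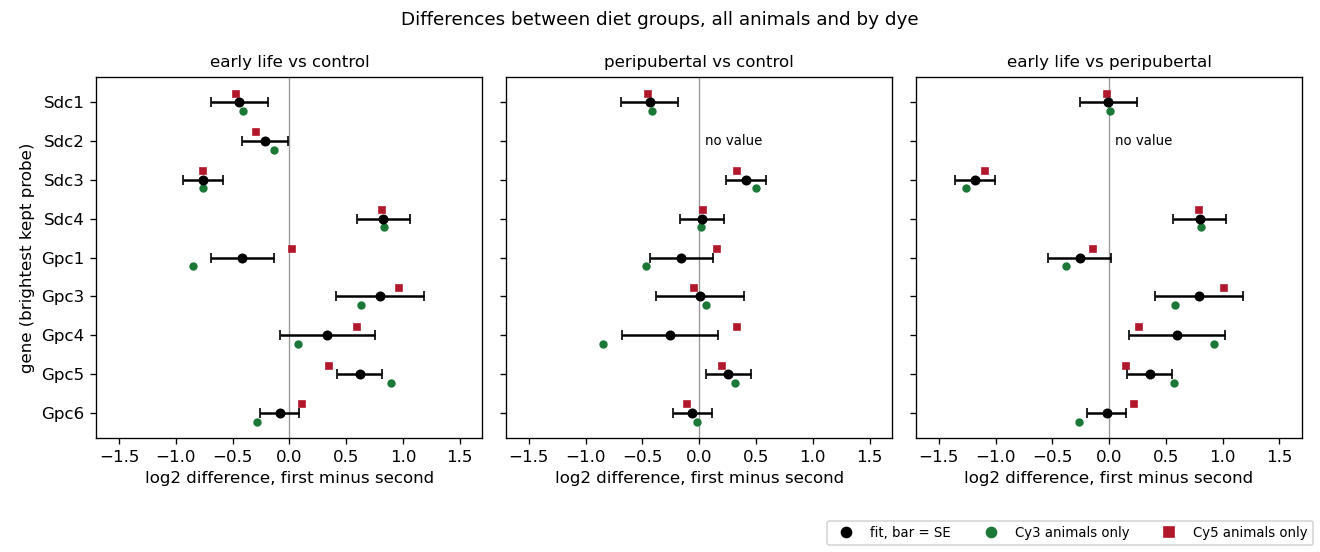
Log2 differences (horizontal axes) between diet groups for the 9 fitted members (rows), with the fitted value and its SE in black, the difference of Cy3 animals alone as green circles and that of Cy5 animals alone as red squares. In early life against peripubertal, Sdc3 lies at -1.18 with both dyes nearby, Sdc4, Gpc3, Gpc4 and Gpc5 lie above 0, and Sdc1, Gpc1 and Gpc6 lie near 0 or slightly below it.

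Genes that build, modify, cut or read heparan sulfate were counted in 4 lists of 85 genes in all. Early life against control, 0 of 74 tested genes passed the threshold, 36 were higher and 38 lower, and the median was -0.01. Peripubertal against control, 0 of 75 passed, with 45 higher, 30 lower and a median of 0.05. Early life against peripubertal, 0 of 74 passed, with 35 higher, 39 lower and a median of -0.03. Without the array of early life animals 3 and 4, 13 of 69 list genes passed against control and 13 of 69 against peripubertal, where 11.4% and 14.2% of all genes passed. Without early life animal 3 alone, 4 of 74 list genes passed in each of these comparisons, where 1.52% and 4.12% of all genes passed. Without control animal 3, 2 of 74 passed against control and 1 of 74 against peripubertal, where 1.24% and 1.33% of all genes passed.

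The chain synthesis list holds the enzymes and transporters that build, polymerize and sulfate the chains. Early life mice had 11 of its 30 tested genes above control and 19 below (median -0.14), and the same split was found against peripubertal mice (median -0.08). The smallest p in early life against control belonged to B3galt6, a galactosyltransferase of the linkage region that joins chain to core protein. B3galt6 read 10.34, 10.23, 9.73 and 10.38 in controls, 8.97, 9.23, 9.72 and 9.23 in early life animals, and 10.21, 10.06, 10.08 and 10.17 in peripubertal animals. Early life animals lay below the others, by 0.01 log2 at the nearest. Its difference was -0.88 (SE 0.23, adjusted p = 0.151 in limma) against control and -0.84 against peripubertal. Next came Uxs1, which makes UDP-xylose, at -0.58 (adjusted p = 0.167), and Hs2st1, the 2-O-sulfotransferase, at -0.46 (adjusted p = 0.234). Peripubertal mice had 15 of 31 genes above control and 16 below, and the smallest p-values were those of Hs2st1 at -0.37, Papss1 at -0.63 and B4galt7 at -0.34, each with an adjusted p of 1.00 in limma. The Papss1 difference rests on peripubertal animals 1 and 2, which shared an array, because the spots of animals 3 and 4 were outliers. In early life against peripubertal, B3galt6 was followed by Extl1 at -0.61, well above background in 1 of 4 early life channels, and Slc35b3 at 0.44.

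The list of other heparan sulfate proteoglycans shows whether the order of Sdc3 was found outside the 2 families. Of its 11 tested genes, early life mice had 6 above peripubertal and 5 below (median 0.16). Nrp1, a semaphorin and VEGF co-receptor that can carry a chain, was ordered as Sdc3 was: 9.24, 9.13, 8.46 and 8.96 in controls, 8.23, 7.76, 8.43 and 8.58 in early life animals, and 9.17, 9.08, 9.07 and 9.36 in peripubertal animals. Early life lay below peripubertal in every animal, at -0.92, and overlapped with control, at -0.70 (SE 0.24, adjusted p = 0.221 in limma). Agrn, the basement membrane proteoglycan agrin, was ordered as Sdc4 was: 10.91, 11.44, 11.19 and 11.27 in controls, 12.13 and 12.24 in early life animals 1 and 2, and 11.11, 11.39, 11.60 and 11.56 in peripubertal animals. Its spots in early life animals 3 and 4 were outliers, as for Sdc4. The early life values of Agrn lay above all others, at 0.99 against control (SE 0.20, adjusted p = 0.130 in limma, 2 against 4 animals) and 0.77 against peripubertal. Col18a1, the collagen of endostatin, came next against control, at 0.42 (adjusted p = 0.439), and Cd44, the hyaluronan receptor, came next against peripubertal, at 0.45. Peripubertal mice had 8 of 11 above control and 3 below, and Spock1 at -0.31 (well above background in 3 control channels and 1 peripubertal channel), Cd44 at -0.31 and Agrn at 0.22 had the smallest p-values, each with an adjusted p of 1.00 in limma.

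The third list holds enzymes that shed the proteoglycans or cut their chains, together with partners of the syndecan tail. Of its 16 tested genes, early life mice had 7 above control and 9 below (median -0.15), and 6 above peripubertal and 10 below (median -0.15). Sdcbp2, a PDZ protein of the syntenin family whose first member binds syndecan tails, read 9.73, 9.88, 8.58 and 9.94 in controls, 8.23, 8.44, 7.98 and 8.21 in early life animals, and 9.53, 9.10, 9.09 and 9.83 in peripubertal animals. Early life animals lay below all others, at -1.32 against control (SE 0.33, adjusted p = 0.149 in limma) and -1.17 against peripubertal. Cask, a PDZ scaffold that also binds syndecan tails, read 11.80 to 12.25 in controls, 12.30 to 13.00 in early life animals and 11.71 to 11.98 in peripubertal animals. Early life animals lay above all others, and Cask was higher in early life by 0.63 against control (SE 0.19, adjusted p = 0.181 in limma) and by 0.71 against peripubertal. Hpse, the heparanase that cuts the chains, came next against control at 0.61 (adjusted p = 0.202). Mmp7, a metalloproteinase able to shed syndecan ectodomains, came next against peripubertal. It read 8.35 to 11.22 in peripubertal animals and was not well above background in any early life channel. The measured means were 7.08 in early life and 9.42 in peripubertal animals. In group means, Mmp7 was at least 4.17-fold higher in peripubertal animals. Each early life channel was counted at the lowest signal well above background there, or at its own signal where that was higher. Peripubertal animals 1 and 2, which shared an array, read 11.22 and 9.64. Animals 3 and 4, on the other peripubertal array, read 8.48 and 8.35, nearer to the early life mean. The split for peripubertal against control was 10 of 16 higher and 6 lower (median 0.04), and Actn1 at 0.36, Notum at 0.29 and Hpse at 0.26 had the smallest p-values, each with an adjusted p of 1.00 in limma.

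The fourth list holds growth factors and receptors that bind the chains. Of its 17 tested genes, early life mice had 13 above control and 4 below (median 0.27), and 12 above peripubertal and 5 below (median 0.24). Mdk, the midkine ligand of Sdc3, read 11.33, 10.94, 11.81 and 10.93 in controls, 12.51, 11.97, 11.70 and 11.79 in early life animals, and 11.03, 10.98, 11.63 and 11.41 in peripubertal animals. Early life exceeded every peripubertal animal and overlapped with control, at 0.74 against control (SE 0.25, adjusted p = 0.217 in limma) and 0.73 against peripubertal. Bmp4, at 0.50 (adjusted p = 0.292), and Fgfr3, at 0.52 (adjusted p = 0.297), followed against control. Alk, a receptor tyrosine kinase reported to respond to midkine, was 1.28 higher in early life than in peripubertal mice, where 1 of 4 channels was well above background, and Fgfr3 was 0.47 higher. For peripubertal against control it was 12 of 17 higher and 5 lower (median 0.08), and Fgf8 at 0.25, Ptprf at 0.18 and Bmp4 at 0.28 had the smallest p-values, each with an adjusted p of 1.00 in limma.

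**Figure D4:**
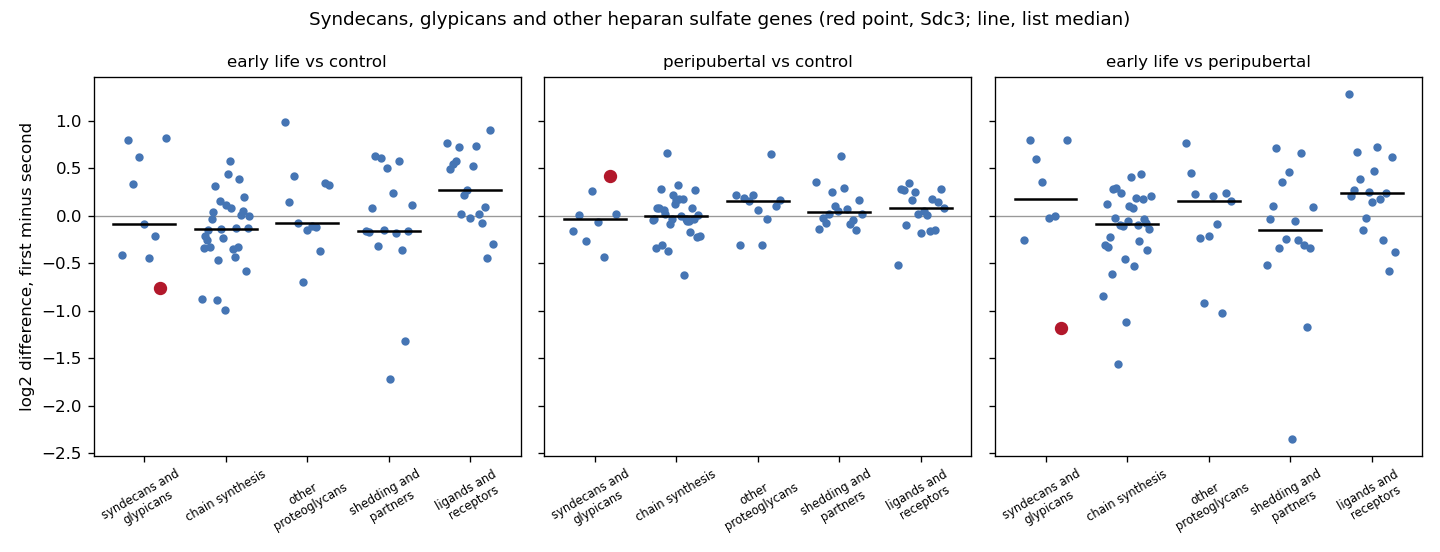
Log2 difference (vertical axis) of each tested gene in the syndecan and glypican list and in the 4 other heparan sulfate lists, for the 3 comparisons (panels), with Sdc3 in red and a line at each list's median. The lowest point in both comparisons of early life mice is Mmp7, drawn at its measured value although early life signals were not well above background. Sdc3 is the lowest member in both comparisons of early life mice, at -0.76 and -1.18, and the highest in peripubertal against control, at 0.41.

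Over the 12 samples, with the mean of each dye taken out, the genes whose pattern was most like that of Sdc3 were Emilin2 (Pearson r = 0.96), Ptpre (0.96), Dll4 (0.96), Stab1 (0.95) and Apoc3 (0.94), out of 10740 genes compared. The samples share arrays in pairs and the diet groups shape every such r, so these are descriptions. Emilin2, an extracellular matrix glycoprotein, averaged 10.42 in control, 8.27 in early life and 11.11 in peripubertal mice. Stab1, a scavenger receptor of macrophages and sinusoidal endothelium, averaged 9.42, 8.80 and 9.79. Among the members with a value in all 12 samples, r to Sdc3 was 0.41 for Gpc1, 0.19 for Gpc6, 0.11 for Sdc1, -0.54 for Gpc3, -0.55 for Gpc4 and -0.61 for Gpc5. By r, Gpc1 ranked 2828 of the 10740 genes, and Gpc3, Gpc4 and Gpc5 ranked 8512, 8575 and 9020. Many other genes had an r as negative, so nothing about the members is read from these signs.

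Markers of macrophages were ordered as Sdc3 was. All 10 listed genes were fitted, and none was missing from a group. All 10, among them C1qa, C1qb, Cx3cr1 and Csf1r, were lower in early life than in control mice (median -0.42) and than in peripubertal mice (median -0.63). In peripubertal against control mice 9 of 10 were higher (median 0.22), and none passed the threshold in any comparison. The mean of the 10 markers, each taken relative to its own mean over the samples, lay between -0.36 and 0.49 in controls. It lay between -0.56 and 0.03 in early life animals and between -0.25 and 0.73 in peripubertal animals, so the groups overlapped. Of the endothelial markers, 7 of 9 were lower in early life than in control mice (median -0.25) and 6 of 9 than in peripubertal mice (median -0.32). Other marker lists were higher or split in early life against peripubertal mice. Higher were 7 of 9 pituicyte and glial markers (median 0.24) and 6 of 8 stem and folliculostellate markers (median 0.18). So were 5 of 9 pericyte and fibroblast markers (median 0.09) and 5 of 11 hormone cell markers (median -0.19). In whole-gland RNA fewer cells of a type and less RNA per cell cannot be told apart. The part of any cell type in the Sdc3 difference was not tested. A list of other proteoglycans, most of them of the chondroitin sulfate class, was split evenly between early life and peripubertal mice. Of its genes, 5 of 10 were higher and 5 lower (median 0.0032). The list includes the keratan sulfate proteoglycans Lum (0.65) and Fmod (0.28), both among the higher genes.

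The promoters of the 2 syndecans that differed in opposite directions are shown because the treatment concerns vitamin D, whose receptor (VDR) binds paired half-sites. RefSeq promoter entries (GRCm38.p6) were found for 7 of the 10 members, all but Sdc2, Gpc1 and Gpc6. The 250 bases before each start were searched on both strands for the half-site AGGTCA, for its GGGTCA version, for its AGTTCA version and for its GGTTCA version, for 2 of these in direct repeat with 3 bases between them, and for the GC box GGGCGG. Capitals mark the matches, with CCGCCC being the GC box read on the other strand.
Sdc3, chr4:130792287-130792536, plus strand: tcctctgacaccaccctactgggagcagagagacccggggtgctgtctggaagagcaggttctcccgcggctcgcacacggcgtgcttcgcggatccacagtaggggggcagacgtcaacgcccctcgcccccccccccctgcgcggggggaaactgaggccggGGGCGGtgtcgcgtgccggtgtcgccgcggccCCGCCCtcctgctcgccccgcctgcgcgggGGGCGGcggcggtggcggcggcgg
Sdc4, chr2:164443189-164443438, minus strand: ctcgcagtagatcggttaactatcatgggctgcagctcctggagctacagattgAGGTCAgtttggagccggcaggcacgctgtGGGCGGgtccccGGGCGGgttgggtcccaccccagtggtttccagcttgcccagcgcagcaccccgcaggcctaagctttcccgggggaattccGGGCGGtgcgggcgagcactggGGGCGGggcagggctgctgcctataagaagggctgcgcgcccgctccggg

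Sdc4 and Gpc4 each hold 1 half-site, 196 and 171 bases before the start, and the other 5 promoters hold none. A half-site occurs in 38.6% of the 32851 promoters of the table. None of the 7 holds the direct repeat, which occurs in 0.0396% of promoters. All 7 hold a GC box, which occurs in 32.7% of promoters: Sdc4 has 4 matches, Sdc1, Sdc3, Gpc2 and Gpc3 have 3 each, and Gpc4 and Gpc5 have 1 each. The Sdc3 window is 76.4% G and C and that of Gpc5 51.2%, the extremes of the 7. A match shows letters and not binding, and the lack of one says only that these letters are absent from this window.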

How the data were processed

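Pituitary RNA of 12 mice in 3 diet groups was measured on 6 Agilent 2-colour arrays. The authors deposited spot intensity from Agilent Feature Extraction 11.0.1.1, with probe positions in mm9, per the file headers. They also deposited a table of log2 values whose columns have a median of 0, per the values. How that table was made is not given in the sources used here. It was used only for early life against peripubertal, with columns matched to scanned channels within 1e-06 log2 after a constant shift per column.

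The members and gene lists were chosen with earlier results of these data known. Mean spot intensity was corrected by normexp (offset 50), normalized by loess within arrays and scaled by Aquantile between arrays (R 4.3.3, limma 3.58.1). Outlier spots were then removed, replicate spots averaged, and probes kept where well above background in at least 4 of 12 channels, which left 24605 probes. The brightest probe stood for its gene (19090 genes). The limma model held diet group and dye as terms, and the array entered as a block by duplicateCorrelation (correlation 0.34), with all 12 samples sharing the spread and Benjamini-Hochberg adjustment over all genes tested (threshold 0.05). Genes without a value in a group were not tested there. The fitting step was tested on simulated data with known shifts in early life animals. The simulation held no slide effect and no shifts as small as the members' differences from control.

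All members were named. From each list, genes past the threshold were named, or else the 3 of smallest unadjusted p per comparison. The 5 genes with the highest r to Sdc3 were also named. The number of arrays limits the precision. Replicate numbers did not pair samples: deviations of same-numbered animals correlated between -0.29 and 0.06. Alternatives covered background correction, scaling, filters, probe choice, outlier spots, samples, blocks and each animal or array left out.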

Additional observations from a re-analysis of the deposited data

Results flagged for a closer look

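Within groups of 4 animals, 36 sets of values were examined for an animal far from the rest, and 4 were found, where chance flags about 1 in 20. Early life animal 4 read 9.95 for Sdc3, against 9.58 for the nearest of the other early life animals. It lay nearer to the controls than the others did, and without it early life minus peripubertal was -1.26. Early life animal 3 read 9.96 for Gpc3, against 11.03 for the nearest, and lay among the controls. Peripubertal animal 1 read 6.96 on the dimmer Gpc4 probe, against 7.20 for the nearest. Control animal 3 read 6.81 for Gpc2, against 6.75 for the nearest, on a probe that was not well above background.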

How the results depend on the processing

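Early life minus peripubertal for Sdc3 is the value that led to the list, so its stability supports nothing further. Several alternatives, such as leaving out a control animal or keeping outlier spots, do not change the Sdc3 values of these groups. The difference kept its sign under all 33 alternatives, from -1.27 to -0.98. In the same contrast, signs also held for Sdc4, Gpc3, Gpc4 and Gpc5. They turned for Sdc1 under 9 alternatives, Gpc6 under 8 of 32 and Gpc1 under 1. Counts over all genes moved widely, and unless stated the cause was not tested.

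In early life against control, 18 genes passed. The count was 35 with the software's processed signals and 4 with median centring. It was 0 when a probe had to be well above background in all 12 channels. It was 125 with a gene's probes averaged, 11 with only the 8 samples compared and 30 without a dye term. With outlier spots left out before scaling it was 3058. That last alternative was chosen after seeing the data, and it moved the median of all genes to 0.31. Under it 2 of 9 members (Sdc4 and Gpc5) and 9 of 74 heparan sulfate list genes passed, against 0 and 0. There 16.6% of all genes passed, so nothing is read from these counts. With the mean of probes 1 of 74 list genes passed, where 0.672% of all genes did. Against control, 4 genes passed in peripubertal mice, all lower. The count was 0 with a normexp offset of 16, processed signals, quantile scaling, median centring, no filter, the all-channel filter, outlier spots kept, array means and outlier spots left out before scaling, against 881 genes at an unadjusted p under 0.05 in the limma fit. It was 20 with the mean of probes and 10 with only the samples compared. In early life against peripubertal, 24 genes passed. The count was 56 with the offset of 16, 6 with median centring, 1 with the all-channel filter, 151 with the mean of probes, 44 with every probe on its own, 7 with outlier spots kept, 66 with only the samples compared, 39 with array means, 89 without a dye term, 130 in the authors' value table and 315 with outlier spots left out before scaling, where 2 list genes passed. The count of members there, 1 by the choice of the list (Sdc3), was 0 with processed signals, median centring, no filter, the all-channel filter, outlier spots kept and array means.

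With the replicate number as a block, 10, 0 and 6 genes passed in the 3 comparisons, in the order above, and 0 members in each. The block's numbers do not pair the samples.

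Leaving out 1 animal or array gave 6 to 1931 genes in early life against control, 0 to 36 in peripubertal against control and 6 to 2377 in early life against peripubertal. The highest counts of the first and the last came without the array of early life animals 3 and 4. For members the counts were 0 to 2, 0 and 0 to 2, and for list genes 0 to 13, 0 to 1 and 0 to 13. The last contrast chose the members, so nothing is read from its member counts. The highest list counts also came without the array of early life animals 3 and 4, and the shares of all genes there are given above. Where 1 array of a group remained, the spread between arrays of that group was taken from the other groups.

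Small differences turned sign. In early life against control, Sdc2 became 0.044 with median centring and 0.16 with outlier spots left out before scaling, Gpc4 -0.077 with the mean of probes, and Gpc6 0.051 with outlier spots left out before scaling. For peripubertal against control, Gpc1 became 0.071 with median centring and 0.03 with outlier spots left out before scaling, Gpc3 -0.0008 with the offset of 16 and -0.0019 with processed signals, and Gpc6 0.0027 with outlier spots left out before scaling. With 1 animal or array left out, Gpc6 ran from -0.21 to 0.016 in early life against control. In peripubertal mice, Sdc1 ran from -0.90 to 0.033, Sdc4 from -0.089 to 0.14, Gpc1 from -0.57 to 0.25, Gpc3 from -0.43 to 0.44, Gpc4 from -0.58 to 0.10 and Gpc6 from -0.15 to 0.0079. Median centring moved the median of all genes to 0.17 in early life and 0.14 in peripubertal mice against control.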
